A study of Mus musculus with 48 samples.

Results

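The step from an aorta without a lesion to an aorta with one was described in female mice that had all received β-aminopropionitrile (BAPN). It compares the 9 libraries labelled FeAAD with the 8 labelled FeNonAD, together 17 of the 48 libraries of the series, which were chosen by their labels and by no measured value. All 17 came from the thoracic aorta of wild-type (WT) C57BL/6J females, 1 library per mouse, that drank 0.4% BAPN for 28 days from 3 weeks of age. At the endpoint FeAAD mice had an aortic dissection or an aneurysm, which share 1 group, and in FeNonAD mice no lesion was detected. Mice were sorted by outcome after the same treatment, those that died of rupture before the endpoint gave no library, and the estrous cycle was not monitored. The labels do not give the kind, the size or the age of the lesion in each mouse. FeCon values, from 10 females of the same strain and age on normal water, are set beside those of the 17 libraries, and the same step in males is taken from 7 MaAAD and 4 MaNonAD mice on the same BAPN dose.

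BAPN blocks lysyl oxidases, the enzymes that cross-link elastin and collagen, so the growing aortic wall forms weak elastic layers. The wall is built of contractile smooth muscle cells between elastic sheets, with fibroblasts outside and endothelium inside. Aortic dissection is a tear that lets blood enter the wall, and such lesions are known for smooth muscle cells with less contractile protein, for newly laid matrix and for an infiltrate of monocytes, macrophages and neutrophils.

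The 17 libraries held 14967164 to 16453886 counts each, so depth differed little between them. Levels are given in CPM, the usual depth-scaled count, computed on the TMM-scaled library total. A gene is called higher or lower where its Benjamini-Hochberg adjusted p was under 0.05 in edgeR, and differentially expressed (a DEG) where it also differed at least 2-fold. Errors of log2 fold changes are standard errors. The contractile genes Acta2 and Myh11 were abundant in every library, at no less than 8602 and 753 CPM, while 11 heart muscle genes summed to 26.3 to 124 CPM and 10 skeletal muscle genes to 4.53 to 20.8 CPM. Of the FeAAD libraries, FeAAD5 and FeAAD9 stood apart, with a mean correlation with the rest of their group of 0.911 and 0.947 against 0.960 to 0.969 for the other 7. FeNonAD8 was the FeNonAD library most unlike its group, at 0.973 against 0.982 or more. For most lists whose counts moved without FeAAD5 and FeAAD9 both counts are given, and of the 160 named genes called in edgeR 57 no longer passed the adjusted p without both and 2 could not be tested.

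The step was mostly a rise. Of 14431 genes tested, 980 (6.79%) were DEGs higher in FeAAD and 36 (0.249%) were DEGs lower. By adjusted p alone 1904 genes (13.2%) were higher and 721 (5.00%) lower, with a median log2 fold change of 1.04 among the rises and −0.51 among the falls. The falls were therefore many but shallow: 51.5% of the called rises and 4.99% of the called falls reached 2-fold, 89 rises and 0 falls reached 8-fold. FeAAD5 was the highest FeAAD library for 789 of the 980 higher DEGs. Without it 689 of the 980 were still DEGs, and without FeAAD5 and FeAAD9 566 were, with 948 of the 950 that could still be tested moving the same way. Of the 36 lower DEGs 16 remained without FeAAD5 and 8 without both, all 36 keeping their sign. The counts of each gene list below are to be read beside the shares of all tested genes. These are 6.79% higher and 0.249% lower for DEGs, and 13.2% higher and 5.00% lower by adjusted p alone.

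Genes of neutrophils and other myeloid cells were among the largest rises. Cxcl3, a chemokine that attracts neutrophils, was at 0 to 0.446 CPM in FeNonAD and 0 to 43.05 CPM (median 0.719) in FeAAD, with a log2 fold change of 6.50 ± 1.19 (adjusted p = 0.000161). Its level in 5 of 9 FeAAD libraries was above all FeNonAD libraries, led by FeAAD5 and FeAAD9. S100a8 and S100a9 encode the subunits of calprotectin, the main cytosolic protein of neutrophils. S100a8 was at 0.0665 to 1.24 CPM in FeNonAD and 0.12 to 374 CPM (median 1.3) in FeAAD, a log2 fold change of 6.50 ± 1.23 (adjusted p = 0.00019). S100a8 and S100a9 were highest in FeAAD5 and FeAAD9, and without both S100a8 had a log2 fold change of 1.24 (adjusted p = 0.44) and S100a9 one of 1.45 (adjusted p = 0.29). With limma voom S100a8 was at 1.52 (adjusted p = 0.155) and S100a9 at 1.72 (adjusted p = 0.0823), and with DESeq2 they were at 3.88 and 4.07. Cxcl3 kept its call without both, at 2.99 (adjusted p = 0.041), and lost it with limma voom, at 2.26 (adjusted p = 0.106). Without FeAAD5 alone the log2 fold change was 5.08 for Cxcl3, 4.01 for S100a8 and 4.20 for S100a9. Without FeNonAD8 it was 8.11 for Cxcl3.

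Ppbp, a platelet and myeloid chemokine, rose from 0.124 to 1.47 CPM in FeNonAD to 0.908 to 195 CPM (median 5.37) in FeAAD (log2 fold change 5.49 ± 0.93, adjusted p = 9.96e-05), and 8 of 9 FeAAD libraries were above all FeNonAD libraries. Il1r2, the decoy receptor of interleukin-1, had a log2 fold change of 5.45 ± 1.03 (adjusted p = 0.000191), and Sirpb1c, a myeloid receptor whose expected counts were not whole in 52.1% of the 48 libraries, a sign of reads shared with related genes, one of 5.44 ± 0.89 (adjusted p = 9.96e-05). For Apoc2, the activator of lipoprotein lipase, it was 5.27 ± 0.95 (adjusted p = 0.000133), with 8 of 9 FeAAD libraries above the FeNonAD range. Without FeAAD5 the values were 4.22 for Ppbp, 3.86 for Il1r2, 3.80 for Sirpb1c and 3.56 for Apoc2, and without FeNonAD8 that of Il1r2 was 6.66. Il1r2 missed the threshold without FeAAD5 and FeAAD9 together, at 1.54 (adjusted p = 0.23). The 3 remaining genes given for their size were close to 0 in every FeNonAD library, so no fold is given. Cstdc4 was at most 0.0637 CPM in FeNonAD and 8.16 CPM in FeAAD (adjusted p = 0.0137), Gm5150 at most 0.124 and 18.0 CPM (adjusted p = 0.000628), and Prss46 at most 0.0637 and 5.56 CPM (adjusted p = 0.000249). Cstdc4 was above the FeNonAD range in FeAAD5 and FeAAD9 alone and could not be tested without either. Its call ended with DESeq2 (adjusted p = 0.0835) and with limma voom (adjusted p = 0.705).

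**Figure D1:**
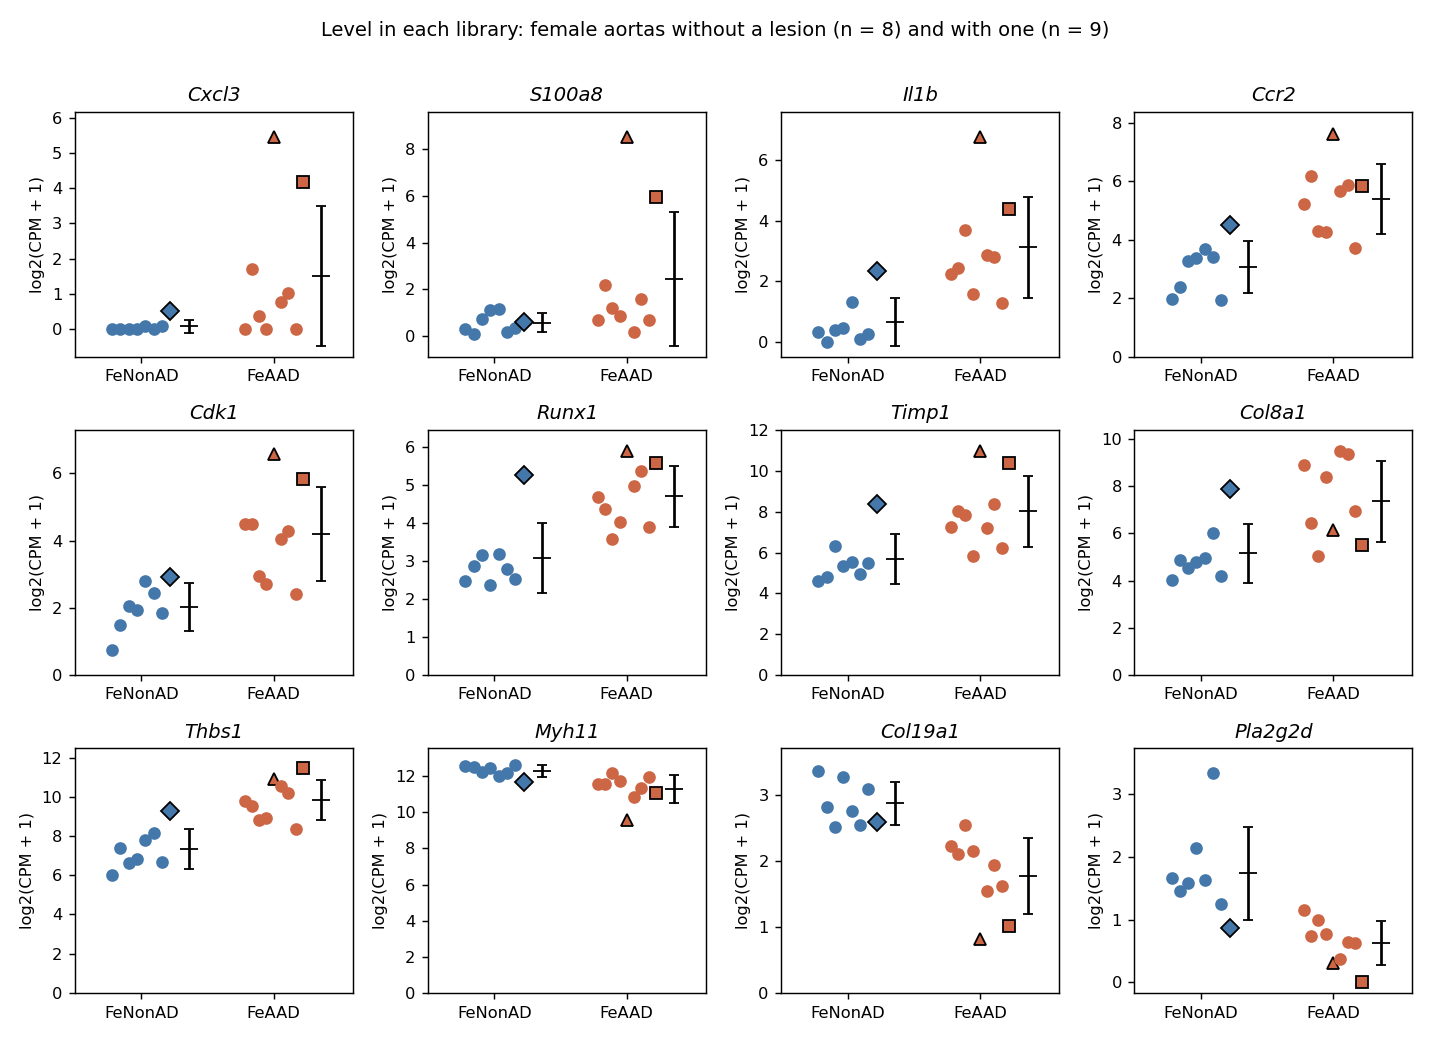
Level of 12 genes, as log2(CPM + 1), in each of the 8 FeNonAD and 9 FeAAD libraries (points). The bars beside them give the mean and SD of each group. FeAAD5 is drawn as a triangle, FeAAD9 as a square and FeNonAD8 as a diamond: both FeAAD libraries are the highest for Cxcl3, S100a8, Il1b, Cdk1, Runx1 and Timp1, whereas Col8a1 is highest in other libraries and Col19a1 is lower in most FeAAD libraries than in any FeNonAD library.

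Genes with the smallest p changed less. The 5 rises with the smallest p were Cdca7l, Ctla2a, Cenpi, Cyp4f18 and Cdk1. Cdca7l, a nuclear partner of the MYC protein, was at 0.806 to 1.6 CPM (median 1.05) in FeNonAD and 1.88 to 6.62 CPM (median 3.56) in FeAAD, a log2 fold change of 1.66 ± 0.25 (adjusted p = 9.96e-05). Its groups did not overlap, and the change was 1.49 without FeAAD5 and 1.46 without FeAAD5 and FeAAD9. Cyp4f18, a neutrophil hydroxylase of leukotriene B4, was at 0.853 to 2.61 CPM in FeNonAD and 2.97 to 58.8 CPM in FeAAD, again without overlap (log2 fold change 3.26 ± 0.51, adjusted p = 9.96e-05, and 2.49 without FeAAD5). Ctla2a, an inhibitor of cysteine proteases whose expected counts were not whole in 58.3% of the 48 libraries, had a log2 fold change of 1.70 ± 0.26 and Cenpi, a centromere protein, one of 2.29 ± 0.36 (adjusted p = 9.96e-05 for both).

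In all, 24 genes (0.166% of those tested) were higher in every FeAAD library than in any FeNonAD library, and 9 (0.0624%) were lower. Leaving out a library can only keep or raise these counts, and single libraries raised them. The genes without overlap between FeAAD and FeNonAD, higher in FeAAD, were 254 without FeNonAD8, and the genes without overlap between FeAAD and FeNonAD, lower in FeAAD, were 64 without FeAAD3. All 24 higher genes passed the adjusted p and 17 were DEGs. Besides the genes above they held Clec7a, the β-glucan receptor dectin-1, at 1.44 to 2.97 CPM in FeNonAD and 4.27 to 73.8 CPM in FeAAD (log2 fold change 2.66 ± 0.45, adjusted p = 9.96e-05, and 1.64 without FeAAD5). Cd84, an adhesion receptor of leukocytes, was at 2.46 to 6.24 CPM and 7.49 to 71.1 CPM in the same order (2.16 ± 0.36, adjusted p = 9.96e-05). Tlr2, a receptor for bacterial lipoproteins, was at 14.4 to 19.0 CPM and 20.4 to 55.5 CPM (0.71 ± 0.17, adjusted p = 0.00225). Ttc9 was at 4.15 to 11.7 CPM in FeNonAD and 13.1 to 24.0 CPM in FeAAD (1.20 ± 0.21, adjusted p = 0.000116), with FeAAD5 the lowest FeAAD library. Etv4, an ETS transcription factor, was at 1.59 to 2.67 CPM and 2.97 to 6.96 CPM (1.16 ± 0.28, adjusted p = 0.00299). Ass1, which makes argininosuccinate for arginine synthesis, was at 12.8 to 19.2 CPM and 21.2 to 65.9 CPM (0.86 ± 0.20, adjusted p = 0.00175). The growth factor gene Tgfb1 was at 48.3 to 67.1 CPM and 70.1 to 122 CPM (0.59 ± 0.16, adjusted p = 0.00738).

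Of the 9 genes that were lower without overlap, 8 passed the adjusted p and 1, Proser2, was a DEG. Proser2 fell from 3.50 to 5.37 CPM in FeNonAD to 0.532 to 2.99 CPM in FeAAD (log2 fold change −1.03 ± 0.20, adjusted p = 0.000302). The actin-severing protein gelsolin (Gsn) was at 3163 to 4185 CPM (median 3447) in FeNonAD and 750 to 3142 CPM (median 2147) in FeAAD (−0.76 ± 0.18, adjusted p = 0.00171). Atp1b2, a subunit of the sodium pump, was at 94.7 to 122 CPM and 20.2 to 85.4 CPM (−0.77 ± 0.17, adjusted p = 0.00101), and Amigo1, an adhesion protein that associates with a potassium channel, at 31.7 to 38.4 CPM and 9.40 to 29.7 CPM (−0.66 ± 0.13, adjusted p = 0.000423). FeAAD5 was the lowest library for Proser2, Gsn, Atp1b2 and Amigo1, but each kept its call without FeAAD5 and FeAAD9, at −0.85, −0.52, −0.60 and −0.52. Dpf2, a chromatin protein, was the lower gene that did not pass, at 71.5 to 78.5 CPM against 60.6 to 70.5 CPM (−0.18 ± 0.07, adjusted p = 0.066).

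The largest falls were in genes of low level. Pla2g2d, a secreted phospholipase A2 known from lymphoid tissue, was at 0.828 to 9.12 CPM (median 2.06) in FeNonAD and 0 to 1.22 CPM (median 0.561) in FeAAD. FeNonAD6 held the highest value and most FeAAD libraries lay below every FeNonAD library, with a log2 fold change of −2.28 ± 0.43 (adjusted p = 0.000195). Coch, the matrix protein cochlin, was at 2.80 to 7.52 CPM and 0.785 to 5.14 CPM (−1.34 ± 0.31, adjusted p = 0.00165). Cdh16, a cadherin, was at 0.955 to 1.77 CPM and 0.176 to 1.18 CPM (−1.33 ± 0.37, adjusted p = 0.00952), and at −1.20 (adjusted p = 0.0546) without FeAAD5 and FeAAD9. Col19a1, a collagen of basement membrane zones, was at 4.69 to 9.29 CPM and 0.769 to 4.83 CPM (−1.29 ± 0.27, adjusted p = 0.000475), and its groups overlapped by a single FeAAD library. Sparcl1, a matricellular protein of the vessel wall, was abundant, at 500 to 1049 CPM and 132 to 692 CPM, and was among the 5 falls with the smallest p (−0.87 ± 0.18, adjusted p = 0.000531). The other falls named for their size were Cd209g, whose reads were shared with related genes, Gm11541, Fxyd3, Adgrb1, Rab9b, Doc2a and Dpp10, with log2 fold changes of −1.25 to −1.13.

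Fxyd3, Adgrb1 and Rab9b lost their call when 1 library was left out. Adgrb1, an adhesion receptor that binds phosphatidylserine, was at −1.15 ± 0.37 (adjusted p = 0.0245), and at −0.98 (adjusted p = 0.0501), −1.05 (adjusted p = 0.0527) and −0.91 (adjusted p = 0.0917) without FeAAD5, FeNonAD5 and FeNonAD7. Rab9b, a small GTPase, was at −1.15 ± 0.36 (adjusted p = 0.0228), and at −1.03 (adjusted p = 0.0611), −1.02 (adjusted p = 0.0589) and −1.06 (adjusted p = 0.0504) without FeAAD5, FeNonAD1 and FeNonAD4. Fxyd3, a regulator of the sodium pump, was at −1.16 ± 0.41 (adjusted p = 0.0424). Its call ended without FeAAD1, FeAAD4, FeAAD5, FeAAD7, FeAAD9, FeNonAD1, FeNonAD3, FeNonAD4, FeNonAD5 or FeNonAD7, with adjusted p of 0.0512 to 0.10.

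Markers shared by all leukocytes rose. All 6 pan-leukocyte markers were DEGs, with a median log2 fold change of 2.01 against −0.00140 over all genes tested, and all 6 remained DEGs without FeAAD5 and FeAAD9, with a median of 1.35. Their summed level was 68.9 to 313.8 CPM (median 122.6) in FeNonAD and 183.5 to 1540 CPM (median 452.5) in FeAAD. FeNonAD8 held the highest FeNonAD sum, above the lowest FeAAD library, FeAAD3. Ptprc (CD45), carried by all leukocytes, was at 5.83 to 25.2 CPM in FeNonAD and 11.9 to 96.7 CPM in FeAAD (1.54 ± 0.40, adjusted p = 0.00498), and FeCon had a median of 6.59 CPM. In bulk tissue, more cells of a type cannot be told apart from more RNA per cell.

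Macrophage and monocyte markers were among the called ones. Of 14 macrophage markers tested 12 were higher, 10 of them DEGs, and Mertk was lower, with a median of 1.27, and 12 were still higher without FeAAD5 and FeAAD9. Lyz2, lysozyme, was at 138 to 348 CPM (median 202) in FeNonAD and 257 to 3750 CPM (median 541) in FeAAD, with 8 of 9 FeAAD libraries above the FeNonAD range (1.95 ± 0.36, adjusted p = 0.00016, and 1.19 without FeAAD5). The complement gene C1qa rose by 1.20 ± 0.27 (adjusted p = 0.00112) and Adgre1 (F4/80) by 1.46 ± 0.29 (adjusted p = 0.000302). All 5 monocyte markers were DEGs, but 2 were without FeAAD5. Ccr2, the receptor that brings inflammatory monocytes out of the marrow, was at 2.81 to 21.7 CPM and 12.1 to 193 CPM (2.68 ± 0.52, adjusted p = 0.000266) and kept its call without both libraries, at 2.08. By contrast, of 9 markers of resident perivascular macrophages F13a1, Mrc1 and Pf4 were higher and Timd4 lower (median 0.21), with 1 higher and 0 lower without FeAAD5 and FeAAD9, and Lyve1, a defining marker of that population, was at 29.9 to 62.7 CPM and 8.28 to 102 CPM (0.21 ± 0.27, adjusted p = 0.61). Trem2, the lipid receptor of phagocytes, was at 1.6 to 9.43 CPM and 5.51 to 109 CPM (2.76 ± 0.47, adjusted p = 9.96e-05, and 2.02 without FeAAD5).

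Of 16 genes of macrophage activation 14 were DEGs (median 2.60), and 8 were without FeAAD5 and FeAAD9 (median 1.45). Clec4d, a C-type lectin that senses glycolipids, was at 0.183 to 2.67 CPM in FeNonAD and 0.495 to 117 CPM in FeAAD (4.94 ± 0.82, adjusted p = 9.96e-05). It was 3.45 without FeAAD5 and 5.85 without FeNonAD8. Tnf, tumour necrosis factor, was at 0.0655 to 0.955 CPM and 0.471 to 4.26 CPM (2.18 ± 0.45, adjusted p = 0.000513). Ptgs2, the inducible cyclooxygenase, was at 11.2 to 34.9 CPM and 24.8 to 597 CPM (2.63 ± 0.54, adjusted p = 0.000409), with FeAAD9 the highest library, and 1.82 without FeAAD9 and 1.18 (adjusted p = 0.071) without FeAAD5 and FeAAD9.

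Neutrophil markers rose in few libraries. Of 12 tested, 10 were DEGs with a median of 3.54, the highest median of the 54 lists, but 1 gene, Csf3r, was still called without FeAAD5 and FeAAD9. The summed level of all 16 markers listed, tested or not, was 10.2 to 41.1 CPM (median 17.9) in FeNonAD and 15.3 to 1345 CPM (median 24.6) in FeAAD. The group medians thus lay close together, and FeAAD5 and FeAAD9 were the highest libraries. Csf3r, the receptor for granulocyte colony-stimulating factor, was at 1.05 to 5.99 CPM and 3.28 to 156 CPM (3.60 ± 0.62, adjusted p = 9.96e-05), with 2.51 without FeAAD5 and 1.61 (adjusted p = 0.012) without both. Cxcr2, the receptor for the neutrophil chemokines, was at 0 to 0.446 CPM and 0 to 32.9 CPM (4.85 ± 1.01, adjusted p = 0.00053, some reads shared), with 3.52 without FeAAD5 and 0.90 (adjusted p = 0.62) without both and 1.02 (adjusted p = 0.342) with limma voom. Lcn2, an iron-binding protein of neutrophil granules, had 2.63 ± 0.64 (adjusted p = 0.00275), 1.88 without FeAAD5 and 1.02 (adjusted p = 0.30) without both. Ly6g, a surface antigen of neutrophils, and the granule genes Elane, Mpo and Camp had too few counts to be tested.

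Many genes of antigen-presenting cells rose, and 1 of 12 T cell markers did, beside 13.2% of all tested genes called higher. Of 15 dendritic cell and MHC class II genes 11 were DEGs (median 1.26), 6 without FeAAD5 and 7 without FeAAD5 and FeAAD9. H2-Aa, a chain of the class II molecule, was at 38.0 to 153 CPM and 80.3 to 400 CPM (1.31 ± 0.33, adjusted p = 0.00325), and Flt3, a receptor of dendritic cell precursors, at 0.0655 to 1.27 CPM and 0.619 to 5.97 CPM (2.34 ± 0.52, adjusted p = 0.00101). The T cell marker was Il7r, which was not called without FeAAD5, and Cd3e, a chain of the T cell receptor complex, was at 0.0655 to 1.98 CPM and 0.186 to 1.04 CPM (0.28 ± 0.63, adjusted p = 0.79). Of 8 B and plasma cell markers Ms4a1, Cd79a, Cd79b and Cd22 were DEGs, 1 was without FeAAD9 and none without FeAAD5 and FeAAD9. Of 10 NK and cytotoxic markers 2 had enough counts to be tested, and both were DEGs, 1 of them without FeAAD5 and FeAAD9. Ms4a1 (CD20) was at 0.0612 to 0.681 CPM and 0.312 to 1.63 CPM (1.48 ± 0.46, adjusted p = 0.0195), and Cd79a, part of the B cell receptor, at 0.245 to 1.67 CPM and 0.371 to 8.28 CPM (1.66 ± 0.48, adjusted p = 0.0124). Both lost their call without FeAAD9, at 1.25 (adjusted p = 0.060) and 1.08 (adjusted p = 0.094), and Cd79a with limma voom (0.80, adjusted p = 0.155).

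**Figure D2:**
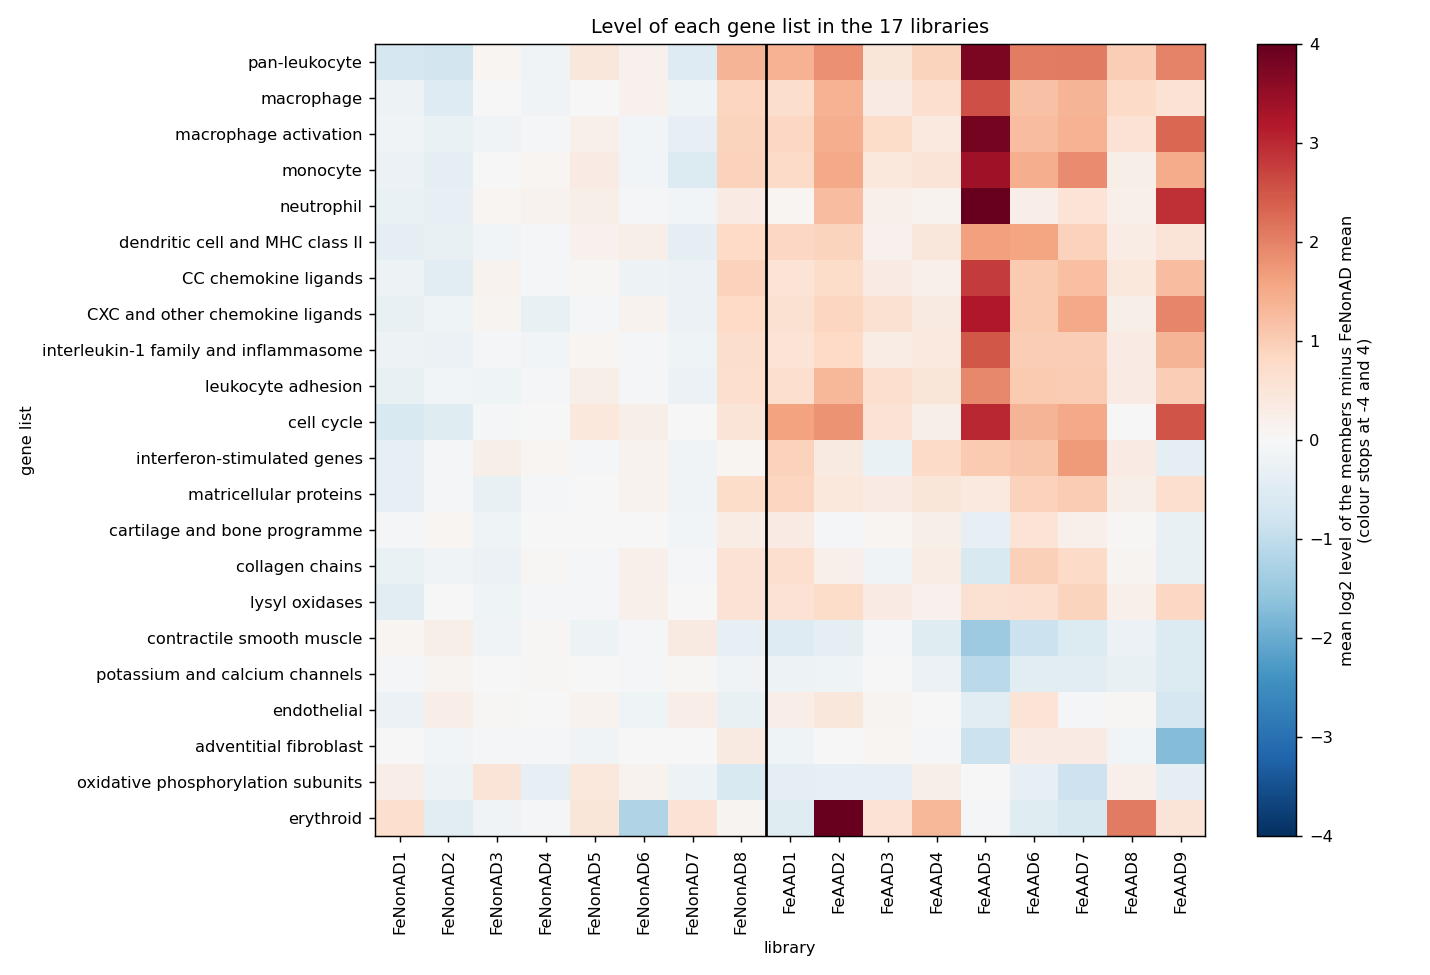
Mean level of 22 gene lists in each of the 17 libraries (columns), as the mean over the members of log2(CPM + 1) minus the FeNonAD mean. Red is higher and blue lower than the FeNonAD mean, the black line divides FeNonAD from FeAAD. Leukocyte, chemokine and cell cycle rows are red in most FeAAD libraries and darkest in FeAAD5, the neutrophil row is dark in FeAAD5 and FeAAD9, and the erythroid row in FeAAD2.

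Many of the chemokines and of their receptors rose. Of 18 CC chemokine ligands tested 10 were DEGs (median 2.16), of 13 CXC and other ligands 9 were DEGs and 10 higher (median 2.42), and of 17 receptors 9 were DEGs and 1, Ccrl2, was lower (median 1.42). Without FeAAD5 and FeAAD9 the DEGs were 7, 6 and 7, and 0 receptors were lower. Among CC ligands Ccl2, the ligand of Ccr2, was at 0.372 to 18.5 CPM (median 1.56) in FeNonAD and 2.59 to 151 CPM (median 11.6) in FeAAD (2.98 ± 0.69, adjusted p = 0.00176). FeNonAD8 held 18.5 CPM and the next FeNonAD library 3.41 CPM, so Ccl2 was at 4.21 without FeNonAD8, 1.90 without FeAAD5 and 1.39 (adjusted p = 0.16) without FeAAD5 and FeAAD9. Ccl3, a ligand of Ccr1, was at 0 to 0.255 CPM and 0.118 to 11.9 CPM, with 8 of 9 FeAAD libraries above the FeNonAD range (4.56 ± 0.83, adjusted p = 0.000141, and 3.43 without FeAAD5). Ccr1 rose by 3.18 ± 0.58 (adjusted p = 0.000146), with 2.32 without FeAAD5.

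Cx3cl1 (fractalkine) and its receptor Cx3cr1 rose with little weight on any single library. Cx3cl1 was at 17.9 to 52.4 CPM (median 23.5) and 34.4 to 80.3 CPM (median 54.5), with FeAAD5 the lowest FeAAD library (1.04 ± 0.21, adjusted p = 0.000358). Cx3cr1 was at 1.05 to 12.6 CPM (median 5.41) and 9.71 to 44.9 CPM (median 22.5), with 8 of 9 FeAAD libraries above all FeNonAD libraries (2.13 ± 0.46, adjusted p = 0.00074). Without FeAAD5 and FeAAD9 they were at 1.12 and 2.12. Cxcl12, the stromal ligand of Cxcr4, was at 202 to 396 CPM and 249 to 775 CPM (0.89 ± 0.19, adjusted p = 0.000628). Cxcl10, an interferon-induced chemokine, was at 0 to 1.10 CPM and 0.484 to 24.9 CPM (3.80 ± 0.77, adjusted p = 0.000383), highest in FeAAD7, without which it was 3.08.

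The neutrophil chemokines Cxcl1, Cxcl2 and Cxcl3 are neighbours on 1 chromosome, and the stretches before their starts are shown because all 3 were highest in FeAAD5 and FeAAD9. Cxcl1 was at 0.458 to 6.69 CPM and 1.33 to 32.2 CPM (2.42 ± 0.56, adjusted p = 0.0016), and Cxcl2 at 0.0619 to 0.637 CPM and 0.294 to 19.2 CPM (3.79 ± 0.70, adjusted p = 0.000164). Without FeAAD5 they were at 1.83 and 2.66, and without FeNonAD8 Cxcl1 was at 3.25. The 180 bases before the start of each gene follow, 5′ to 3′ on the gene's strand, from RefSeq's GRCm38.p6 (Cxcl1 chr5:90891065-90891244, Cxcl2 chr5:90903719-90903898 and Cxcl3 chr5:90785921-90786100, all on the + strand). Capitals mark matches to the NF-kappaB site, overlapping ones included.
Cxcl1: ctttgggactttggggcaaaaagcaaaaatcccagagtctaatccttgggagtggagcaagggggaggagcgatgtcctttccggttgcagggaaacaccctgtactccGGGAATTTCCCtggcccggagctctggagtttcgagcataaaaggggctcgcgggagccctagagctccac
Cxcl2: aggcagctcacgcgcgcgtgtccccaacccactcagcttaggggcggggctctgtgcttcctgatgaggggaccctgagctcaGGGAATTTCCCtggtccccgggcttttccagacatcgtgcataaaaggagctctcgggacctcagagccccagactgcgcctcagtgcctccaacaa
Cxcl3: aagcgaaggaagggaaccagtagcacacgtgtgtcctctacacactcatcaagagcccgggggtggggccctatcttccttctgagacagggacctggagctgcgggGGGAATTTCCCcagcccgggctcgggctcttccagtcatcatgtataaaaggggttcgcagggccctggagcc
The match lies within 100 bases of the start in all 3. Among the 11 genes of the CXC list with a RefSeq window, 4 of 11 windows (36.4%) held a match on either strand within 250 bases before the start, those of Cxcl1, Cxcl2, Cxcl3 and Cxcl10, against 3.90% of all 32851 windows. A match is a stretch of letters and not a measured binding site.

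Part of the interleukin-1 and interleukin-6 relatives rose. Of 19 genes of the interleukin-1 family and inflammasome 15 were higher and 10 were DEGs (median 1.00), and 8 were higher without FeAAD5 and FeAAD9. Il1b was at 0 to 4.08 CPM (median 0.276) in FeNonAD and 1.45 to 109 CPM (median 5.93) in FeAAD (4.43 ± 0.74, adjusted p = 9.96e-05), with 3.04 without FeAAD5 and 5.55 without FeNonAD8. Its antagonist Il1rn was at 0.327 to 3.12 CPM and 0.908 to 67.2 CPM (3.39 ± 0.72, adjusted p = 0.000631), with 2.23 without FeAAD5 and 0.86 (adjusted p = 0.39) without FeAAD5 and FeAAD9, and 1.42 (adjusted p = 0.0594) with limma voom. Of 16 interleukin-6 family genes 8 were higher, 6 of them DEGs, and Cntfr was lower (median 0.78), and without FeAAD5 and FeAAD9 3 were higher and 0 lower. Osm, oncostatin M, was at 0.0612 to 1.15 CPM and 0.353 to 19.9 CPM (3.80 ± 0.66, adjusted p = 9.96e-05), with 2.92 without FeAAD5 and 4.51 without FeNonAD8. The shared receptor chain Il6st was at 310 to 438 CPM and 289 to 389 CPM (−0.08 ± 0.09, adjusted p = 0.55). Socs3, a feedback inhibitor of these receptors, was at 8.20 to 90.1 CPM and 13.4 to 165 CPM (1.45 ± 0.40, adjusted p = 0.00901), with 2.27 without FeNonAD8 and 1.11 (adjusted p = 0.057) without FeAAD5.

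Many adhesion molecules of the vessel wall and of leukocytes rose. Of 14 tested 9 were DEGs and 10 higher (median 1.32), and 7 were DEGs without FeAAD5 and FeAAD9. Vcam1, the endothelial and smooth muscle ligand of leukocyte integrins, was at 53.4 to 135 CPM (median 76.2) and 102 to 240 CPM (median 198), with 8 of 9 FeAAD libraries above the FeNonAD range (1.11 ± 0.22, adjusted p = 0.000332). The integrin chains Itgam and Itgb2 rose by 2.20 ± 0.42 (adjusted p = 0.000243) and 1.97 ± 0.37 (adjusted p = 0.00017). None of 12 endothelial markers was called in edgeR, 2 had an unadjusted p under 0.05, DESeq2 called 0 and limma voom 2 (median 0.12). Without FeAAD9, and without FeAAD5 and FeAAD9, 1 was higher in edgeR. Pecam1, the defining endothelial marker, was at 219 to 423 CPM and 120 to 448 CPM (−0.10 ± 0.20, adjusted p = 0.76). Of 10 genes of sprouting endothelium, Esm1, Apln and Aplnr were higher and Mcam was lower, and without FeAAD5 1 was higher. Without FeAAD5 Apln was at 0.84 (adjusted p = 0.199) and Aplnr at 1.09 (adjusted p = 0.122), and Apln lost its call without any of 8 single libraries. Esm1 (endocan), a marker of tip cells, was at 3.22 to 16.3 CPM and 6.30 to 61.9 CPM (1.49 ± 0.41, adjusted p = 0.00783), and Mcam, which smooth muscle also carries, at 709 to 1345 CPM and 265 to 736 CPM (−0.65 ± 0.16, adjusted p = 0.00349).

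The cell cycle was the list with the highest share of calls among those of more than 6 genes. Of 33 genes 32 were higher and 28 were DEGs, with a median of 2.21, and Mcm6 was the exception, at 68.7 to 110 CPM and 69.3 to 126 CPM (0.15 ± 0.13, adjusted p = 0.45). Without FeAAD5 the same count of 32 was higher, and without FeAAD5 and FeAAD9 29 were higher and 22 were DEGs (median 1.52). The summed level was 260.1 to 395.2 CPM (median 338.4) in FeNonAD and 310.1 to 1932 CPM (median 720.9) in FeAAD, with FeAAD8 the lowest FeAAD library and within the FeNonAD range. Cdk1, the kinase that starts mitosis, was at 0.682 to 6.50 CPM (median 2.95) and 4.36 to 94.7 CPM (median 18.6), with 7 of 9 FeAAD libraries above the FeNonAD range (2.96 ± 0.47, adjusted p = 9.96e-05, and 1.94 without both). Top2a, the topoisomerase that untangles chromosomes, was at 2.04 to 14.3 CPM and 6.72 to 107 CPM (2.44 ± 0.44, adjusted p = 0.000133), and Mki67, the proliferation antigen, at 1.80 to 17.1 CPM and 12.8 to 99.3 CPM (2.35 ± 0.43, adjusted p = 0.000161). The cyclin gene Ccnb2 rose by 2.48 ± 0.41 (adjusted p = 9.96e-05) and the transcription factor gene Foxm1 by 1.73 ± 0.31 (adjusted p = 0.000131). The replication genes Mcm2 and Pcna rose by 1.35 ± 0.22 (adjusted p = 9.96e-05) and 0.64 ± 0.16 (adjusted p = 0.00323), and Pcna was at 0.27 (adjusted p = 0.113) without FeAAD5 and FeAAD9. FeCon had lower medians than FeNonAD for Cdk1 (1.17 CPM), Top2a (2.24 CPM) and Mki67 (3.55 CPM). The summed pan-leukocyte markers were likewise highest in FeAAD5, and their part in the cell cycle result was not tested.

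The promoters of mitotic genes are known for CCAAT boxes, bound by NF-Y, and 3 are shown from members that rose by more than 2 on the log2 scale. The 180 bases before the start follow, 5′ to 3′ on the gene's strand, from RefSeq's GRCm38.p6 (Cdk1 chr10:69352913-69353092, Ccnb2 chr9:70421555-70421734 and Top2a chr11:99024190-99024369, all on the − strand). Capitals mark CCAAT or its complement on the other strand.
Cdk1: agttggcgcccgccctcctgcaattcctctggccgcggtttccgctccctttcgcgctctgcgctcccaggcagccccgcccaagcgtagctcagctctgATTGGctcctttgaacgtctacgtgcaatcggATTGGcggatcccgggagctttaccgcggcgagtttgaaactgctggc
Ccnb2: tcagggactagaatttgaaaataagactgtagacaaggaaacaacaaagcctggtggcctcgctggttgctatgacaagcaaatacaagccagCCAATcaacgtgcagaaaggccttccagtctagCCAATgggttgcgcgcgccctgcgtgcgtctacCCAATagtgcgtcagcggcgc
Top2a: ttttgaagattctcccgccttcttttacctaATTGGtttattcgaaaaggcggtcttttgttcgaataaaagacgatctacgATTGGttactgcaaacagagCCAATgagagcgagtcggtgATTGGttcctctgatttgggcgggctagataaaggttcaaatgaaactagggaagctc
Cdk1 held 2 matches, Ccnb2 3 and Top2a 4. Of the 33 cell cycle genes tested 27 had a RefSeq window, and 24 of their 28 windows (85.7%) held CCAAT on either strand within 250 bases before the start, against 33.8% of all windows. A second element of late cell cycle genes, TTTGAA, was in 9 of 28 windows (32.1%) against 16.0% of all windows.

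Contractile smooth muscle genes that were called all fell, each by less than 2-fold. Of 28 tested 16 were lower, 0 were DEGs and 0 were higher, with a median of −0.51. Their summed level was 46650 to 76770 CPM (median 58110) in FeNonAD, 22310 to 57170 CPM (median 40060) in FeAAD and 76460 CPM at the median of FeCon. Leukocyte markers moved with it: against the FeNonAD mean of log2(CPM + 1), FeAAD5 had the lowest mean contractile level (−1.44) and the highest mean pan-leukocyte level (3.77), and FeAAD3 the smallest difference of the FeAAD libraries in both (−0.07 and 0.49). Their part in the fall was not tested. Myh11, smooth muscle myosin heavy chain, was at 3303 to 6277 CPM (median 5128) and 753 to 4566 CPM (median 2977), lowest in FeAAD5 (−0.85 ± 0.20, adjusted p = 0.00209). Cnn1, calponin, was at 1159 to 2217 CPM and 624 to 1434 CPM (−0.64 ± 0.19, adjusted p = 0.0118), and Synpo2, an actin-bundling protein, at 312 to 556 CPM and 68.1 to 383 CPM (−0.87 ± 0.23, adjusted p = 0.0062). Smooth muscle actin, Acta2, was at 13850 to 25400 CPM and 8602 to 18230 CPM and did not pass (−0.50 ± 0.18, adjusted p = 0.051). The count of lower genes was 9 without FeAAD5 and 5 without FeAAD5 and FeAAD9, while the median was −0.45 and −0.44. Myh11, Cnn1 and Synpo2 were among those still called without both, at −0.66, −0.61 and −0.65.

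Regulators of the contractile genes were counted beside the 5.00% of all tested genes that were lower. Of 15 smooth muscle transcription factors 2 were lower, Myocd and Srf, and none without FeAAD5. Myocd (myocardin), the coactivator of contractile genes, was at 158 to 312 CPM and 61.0 to 227 CPM (−0.64 ± 0.20, adjusted p = 0.0224). Its call ended without FeAAD5, at −0.53 (adjusted p = 0.063), and without FeNonAD6, at −0.57 (adjusted p = 0.051). Klf4, a factor of smooth muscle cells that leave the contractile state, was at 49.2 to 79.8 CPM and 34.4 to 106 CPM (0.03 ± 0.20, adjusted p = 0.94). Of 25 windows of 23 contractile genes, 2 (8.00%), those of Myl9 and Vcl, held the CArG box bound by Srf within 250 bases before the start, against 1.47% of all windows. The box was searched as CCWWWWWWGG, where W is A or T, so boxes with another letter inside were not counted. Of 23 potassium and calcium channel genes 8 were lower and 1, Kcnn4, was higher (median −0.42), and 3 were lower without FeAAD5 and FeAAD9. Kcnma1, the large-conductance potassium channel of smooth muscle, was at 46.7 to 79.0 CPM and 19.2 to 53.5 CPM (−0.67 ± 0.16, adjusted p = 0.00263).

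**Figure D3:**
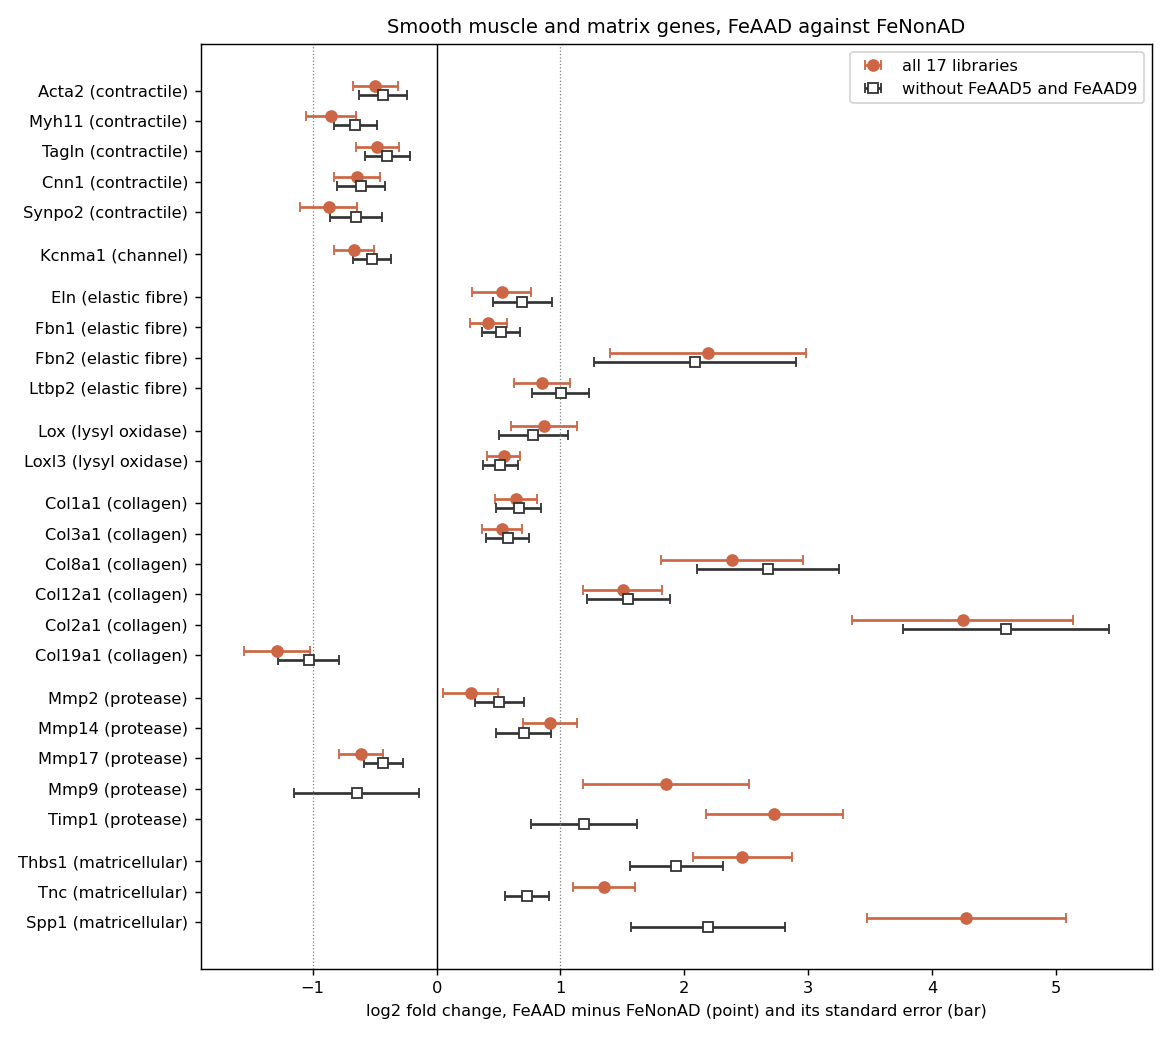
Log2 fold change of FeAAD over FeNonAD (points) with its standard error (bars) for smooth muscle and matrix genes, over all 17 libraries (filled circles) and without FeAAD5 and FeAAD9 (open squares). Dotted lines mark a 2-fold change. The contractile genes lie between −1 and 0 in both, the values of Timp1, Spp1 and Mmp9 shrink without the pair of libraries, and those of Col8a1, Col12a1 and Col2a1 do not.

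Some matrix genes rose, and the summed collagens were highest in FeAAD7 and FeAAD6 and lowest of the FeAAD libraries in FeAAD5. Of 39 collagen chains 10 were higher, 7 of them DEGs, and Col19a1 and Col22a1 were lower, with a median of 0.05, and without FeAAD5 and FeAAD9 13 were higher, and without FeNonAD8 15. Col1a1 and Col3a1, the main fibrillar collagens of the wall, rose by less than 2-fold. Col1a1 was at 2752 to 6803 CPM (median 3891) and 4309 to 9603 CPM (median 6355), with a log2 fold change of 0.64 ± 0.17 (adjusted p = 0.00695). Col3a1 was at 4060 to 11460 CPM and 6328 to 13540 CPM (0.53 ± 0.16, adjusted p = 0.0191), and lost its call without FeAAD7 (0.45, adjusted p = 0.053) or FeNonAD1 (0.45, adjusted p = 0.054). Col8a1, a short-chain collagen that migrating smooth muscle cells make, was at 15.2 to 233 CPM (median 27.6) and 31.5 to 726 CPM (median 123), with FeAAD3, FeAAD9 and FeAAD5 lowest (2.38 ± 0.57, adjusted p = 0.00252, and 3.29 without FeNonAD8). Col12a1, which decorates collagen fibrils, was at 13.7 to 72.0 CPM and 14.6 to 152 CPM (1.5 ± 0.32, adjusted p = 0.000631). P4ha3, a prolyl hydroxylase of collagen, was at 0.434 to 16.8 CPM and 2.97 to 26.9 CPM (1.99 ± 0.51, adjusted p = 0.00428, and 3.23 without FeNonAD8). FeNonAD8 held the highest FeNonAD value of Col8a1, Col12a1 and P4ha3.

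Col2a1, the main collagen of cartilage, was at 0.31 to 10.0 CPM and 0.296 to 206 CPM (median 12.5), highest in FeAAD6 (4.25 ± 0.89, adjusted p = 0.000617), with 3.43 without FeAAD6 and 5.08 without FeNonAD8. Of 18 genes of the cartilage and bone programme Runx1, Runx2, Sox9 and Mgp were higher (median 0.22), against 13.2% of all genes, and 2 were DEGs. Without FeAAD5 and FeAAD9 5 were higher and 4 were DEGs, and without FeAAD9 alone 6 and 4. Mgp lost its call without any of 12 single libraries, with an adjusted p of 0.0561 to 0.0863. Runx2, which directs bone formation, was at 1.83 to 5.54 CPM (median 3.02) and 2.66 to 11.3 CPM (median 8.09), a log2 fold change of 1.21 ± 0.28 (adjusted p = 0.00161). Runx1, a factor of blood cells and of mesenchyme, was at 4.21 to 37.3 CPM and 10.9 to 58.5 CPM (1.55 ± 0.35, adjusted p = 0.00126, and 2.28 without FeNonAD8), and Sox9, which directs cartilage formation, rose by 0.70 ± 0.18 (adjusted p = 0.00396). The 3 genes kept their call without FeAAD5 and FeAAD9, at 1.06, 1.16 and 0.68. In males the step of Col2a1 was 0.71 (adjusted p = 0.75).

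The targets of BAPN that were called rose by less than 2-fold over all libraries. Of 5 lysyl oxidases Lox, Loxl2, Loxl3 and Loxl4 were higher and 0 were DEGs (median 0.54), and 1, Loxl3, was still called without FeAAD5 and FeAAD9. Without FeNonAD8 1 of the 5 was a DEG. Lox, the founding enzyme, was at 244 to 1145 CPM (median 394) in FeNonAD, 530 to 1635 CPM (median 1030) in FeAAD and a median of 467 CPM in FeCon (0.87 ± 0.26, adjusted p = 0.0175). Loxl3 rose by 0.54 ± 0.13 (adjusted p = 0.00278), and Loxl2, whose reads were shared with another gene, by 0.51 ± 0.17 (adjusted p = 0.0258), with 0.41 (adjusted p = 0.069) without FeAAD2 and 0.45 (adjusted p = 0.065) without FeNonAD1. Loxl1 was at 503 to 797 CPM and 512 to 902 CPM (0.22 ± 0.12, adjusted p = 0.19). Their substrate elastin (Eln) was at 6764 to 38680 CPM (median 17060) and 11070 to 44070 CPM (median 25580), with wide overlap (0.53 ± 0.24, adjusted p = 0.12), and FeCon had a median of 10480 CPM. Of 18 elastic fibre and microfibril genes 5 were higher: Fbn2, Ltbp2, Fbln2, Emilin2 and Fbn1, and 3 were higher without FeAAD5 and FeAAD9. Ltbp2, a microfibril-associated protein, was at 322 to 907 CPM and 423 to 1679 CPM (0.85 ± 0.23, adjusted p = 0.00649). Fbn2, the fibrillin of development, was at 0 to 6.94 CPM, the highest in FeNonAD8, and 0.0619 to 15.1 CPM (2.19 ± 0.79, adjusted p = 0.045). It was 4.99 without FeNonAD8. Its call ended without FeAAD5, FeAAD6, FeAAD7 or any of FeNonAD1 to FeNonAD7, with values of 1.69 to 2.05 and adjusted p of 0.080 to 0.13.

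Proteases of the matrix rose in part. Of 16 metalloproteinases 8 were higher, 5 of them DEGs, and 1, Mmp17, was lower (median 0.54), but 3 were higher without FeAAD5, and 1 was higher and 0 lower without FeAAD5 and FeAAD9. The gene higher without both was Mmp14, the membrane-bound activator of other metalloproteinases, at 90.8 to 304 CPM and 155 to 453 CPM (0.92 ± 0.22, adjusted p = 0.00243, and 0.70 without both). Mmp9, the neutrophil and macrophage gelatinase, was at 6.18 to 37.0 CPM (median 8.58) and 4.68 to 268 CPM (median 9.21). Its value was 1.85 ± 0.67 (adjusted p = 0.046), and 0.34 (adjusted p = 0.77) without FeAAD5 and −0.64 (adjusted p = 0.56) without FeAAD5 and FeAAD9. Its call also ended without FeAAD9 or any FeNonAD library but FeNonAD6, with values of 1.75 to 1.83, and with DESeq2 (0.28, adjusted p = 0.666) and limma voom (−0.55, adjusted p = 0.304). Mmp12, the macrophage elastase, was at 0.655 to 4.52 CPM and 4.14 to 77.7 CPM (2.52 ± 0.62, adjusted p = 0.00293), 1.47 (adjusted p = 0.066) without FeAAD5 and 1.35 (adjusted p = 0.12) with limma voom. Mmp17 was at 144 to 201 CPM and 36.9 to 182 CPM (−0.61 ± 0.18, adjusted p = 0.0138), and at −0.43 (adjusted p = 0.083) without both. Among inhibitors Timp1 alone was called of 5, at 23.6 to 336 CPM and 56.6 to 2044 CPM (2.73 ± 0.55, adjusted p = 0.000409), with 2.06 without FeAAD5, 3.65 without FeNonAD8 and 1.19 (adjusted p = 0.082) without FeAAD5 and FeAAD9. Ctss, the elastin-cleaving cathepsin of macrophages, was at 18.1 to 69.5 CPM and 41.4 to 769 CPM, with 8 of 9 FeAAD libraries above the FeNonAD range (2.50 ± 0.41, adjusted p = 9.96e-05, and 1.72 without FeAAD5).

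Matricellular proteins signal to cells from the matrix. Of 20 tested 7 were higher, 5 of them DEGs, and Tnxb and Sparcl1 were lower (median 0.55). Without FeAAD5 and FeAAD9 9 were higher, and without FeNonAD8 10 were higher and 8 were DEGs. Thbs1, thrombospondin 1, was at 64.3 to 613 CPM (median 139) and 328 to 2878 CPM (median 869), a log2 fold change of 2.47 ± 0.40 (adjusted p = 9.96e-05), and 1.94 without both. Tnc, tenascin C, was above the FeNonAD range in 7 of 9 FeAAD libraries (1.35 ± 0.25, adjusted p = 0.00017). Spp1, osteopontin, which macrophages also make, was at 3.28 to 210 CPM (median 23.9) and 68.1 to 4118 CPM (median 253), with 4.28 ± 0.80 (adjusted p = 0.000179), 3.39 without FeAAD5, 5.34 without FeNonAD8 and 2.19 without FeAAD5 and FeAAD9. Of 12 markers of adventitial fibroblasts Lum was higher and Gsn and Clec3b were lower (median −0.13), beside 13.2% of all tested genes higher and 5.00% lower. Without FeAAD5 and FeAAD9 2 of these markers were higher and 1 lower. Lum and Clec3b each lost the call without any of 12 single libraries, with an adjusted p of up to 0.152 for Lum (without FeAAD7) and 0.106 for Clec3b (without FeAAD5). The fibroblast sum was 7607 to 9716 CPM in FeNonAD and 2322 to 9158 CPM in FeAAD, lowest in FeAAD9.

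**Figure D4:**
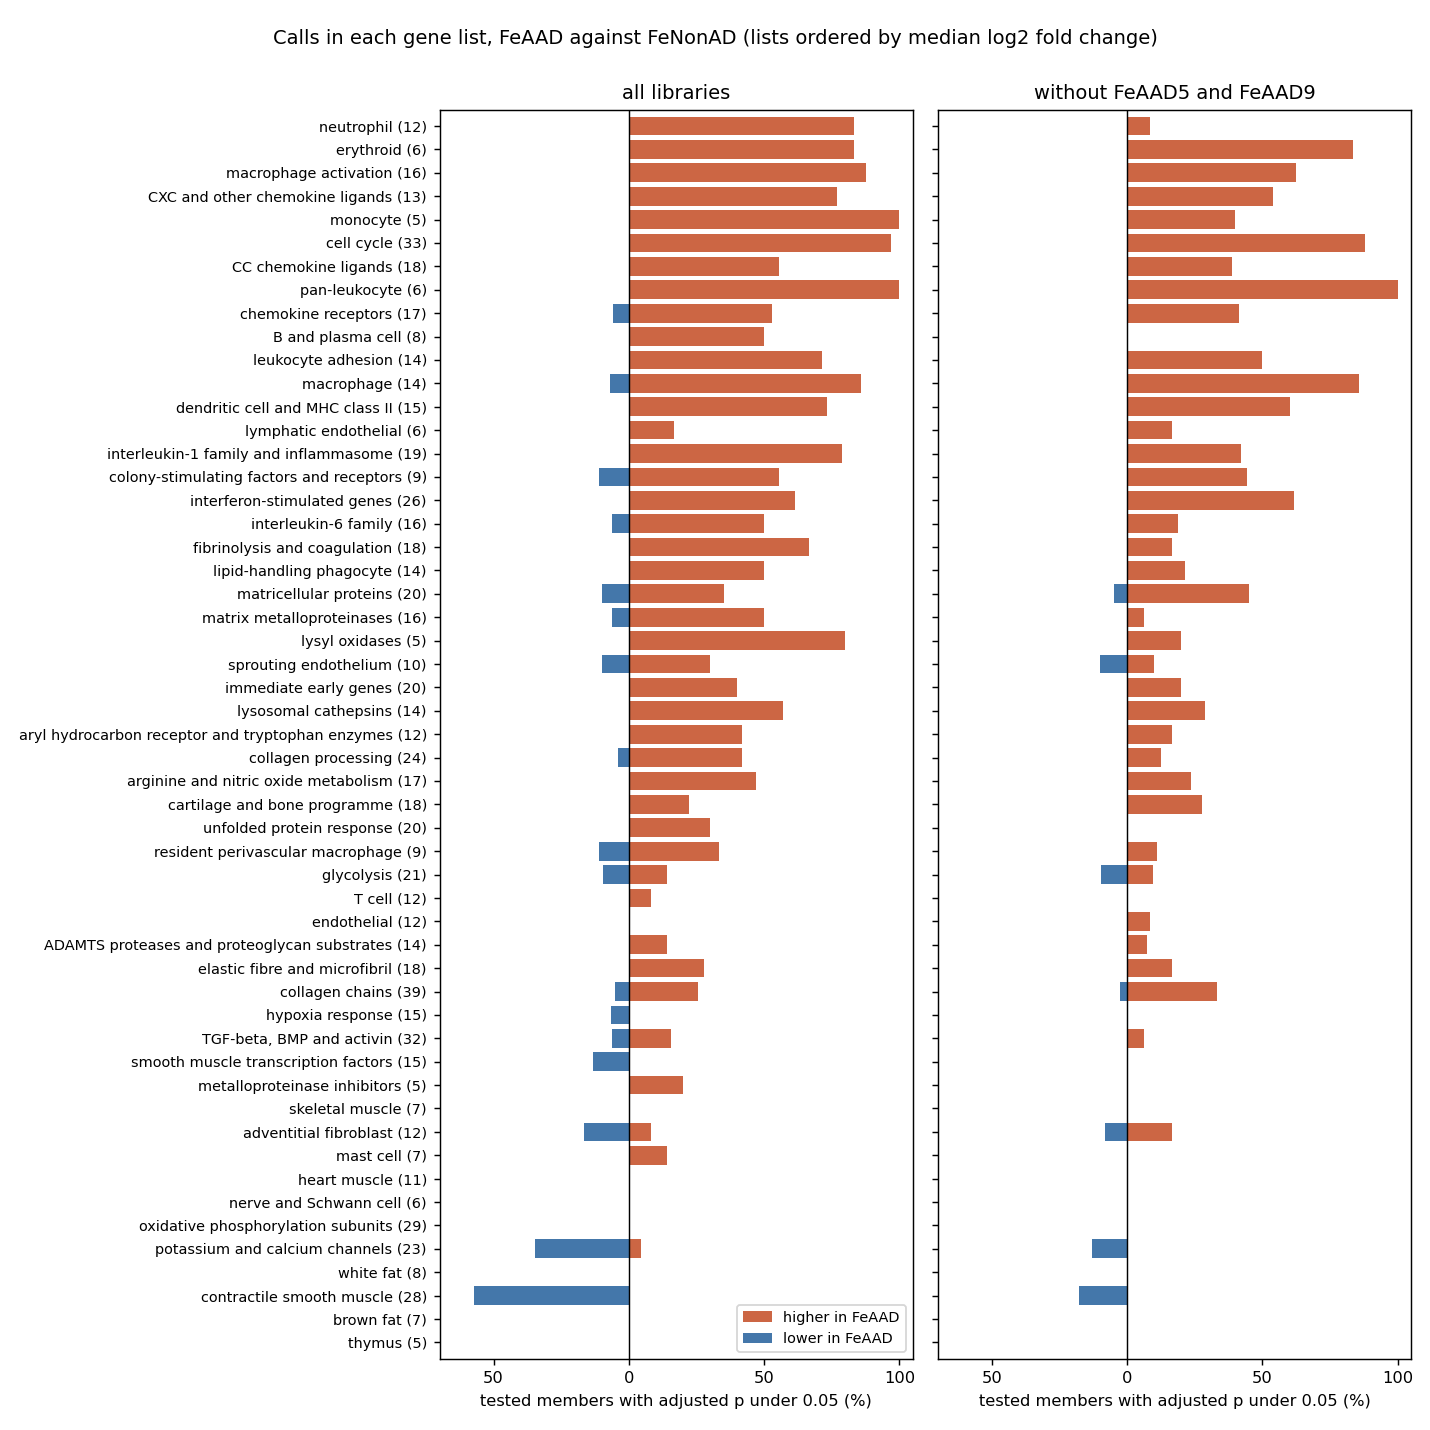
Share of the tested members of each gene list with at least 5 of them (number in brackets) that were higher (orange, to the right) or lower (blue, to the left) in FeAAD at an adjusted p under 0.05, over all libraries (left panel) and without FeAAD5 and FeAAD9 (right panel). Lists are ordered by median log2 fold change. The pan-leukocyte, macrophage and cell cycle bars stay long in both panels, and the neutrophil, B cell and metalloproteinase bars shorten.

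Interferon-stimulated genes were highest in FeAAD7. Of 26 tested 16 were higher, 11 of them DEGs (median 0.94), and without FeAAD5 and FeAAD9 16 were higher and 12 were DEGs. FeAAD7 had a sum of 1221 CPM, and FeAAD9 the lowest, 492.1 CPM, against 593.4 to 903.1 CPM in FeNonAD. Isg15, a ubiquitin-like protein induced by interferon, was at 1.86 to 4.93 CPM (median 3.37) and 2.91 to 37.7 CPM (median 9.24), a log2 fold change of 1.91 ± 0.39 (adjusted p = 0.000417). Irf7, which drives interferon genes, was at 5.96 to 12.0 CPM and 3.68 to 67.3 CPM (1.43 ± 0.38, adjusted p = 0.00636). Oas3, a sensor of double-stranded RNA with some shared reads, was at 0.262 to 1.05 CPM and 0.495 to 10.7 CPM (2.46 ± 0.52, adjusted p = 0.000663). The 180 bases before the start of Isg15 and Oas3 are shown, 5′ to 3′ on the gene's strand, as examples of the list (RefSeq GRCm38.p6, Isg15 chr4:156200819-156200998 and Oas3 chr5:120777660-120777839, both on the − strand). Capitals mark matches, overlapping ones included, to the interferon-stimulated response element, searched as GAAA, any 2 bases and GAAA.
Isg15: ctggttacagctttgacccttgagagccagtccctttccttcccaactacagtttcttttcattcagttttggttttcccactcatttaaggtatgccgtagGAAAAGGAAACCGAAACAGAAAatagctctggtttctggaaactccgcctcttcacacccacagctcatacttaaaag
Oas3: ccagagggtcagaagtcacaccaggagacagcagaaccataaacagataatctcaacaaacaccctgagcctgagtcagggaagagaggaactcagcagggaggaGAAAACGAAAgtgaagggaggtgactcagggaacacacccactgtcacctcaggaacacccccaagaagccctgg
Of the 26 genes 21 had a RefSeq window, and 10 of their 27 windows (37.0%) held the element on either strand within 250 bases before the start, against 2.98% of all windows.

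Smaller groups of genes were called as follows. Of 20 immediate early genes 8 were higher, 6 of them DEGs (median 0.46), and 4 were higher without FeAAD5 and FeAAD9. Egr2, a zinc finger factor, was at 3.18 to 9.49 CPM and 8.43 to 26.4 CPM with 8 of 9 FeAAD libraries above the FeNonAD range (1.49 ± 0.25, adjusted p = 9.96e-05). Fos was at 13.1 to 75.8 CPM and 38.4 to 526 CPM (1.78 ± 0.45, adjusted p = 0.00359), highest in FeAAD3. Of 18 genes of fibrinolysis and coagulation 12 were higher, 7 of them DEGs (median 0.66), and 3 were higher without FeAAD5 and FeAAD9. These were Plau, Tfpi2 and F5. Plau, the urokinase that activates plasmin, was at 6.46 to 21.2 CPM and 13.7 to 50.3 CPM (1.24 ± 0.23, adjusted p = 0.000161). Coagulation factor VII, F7, was at 0.062 to 0.573 CPM and 0.124 to 26.8 CPM (4.22 ± 0.76, adjusted p = 0.000133, and 2.75 without FeAAD5). Genes of energy metabolism are set beside the 13.2% of all tested genes that were higher and the 5.00% that were lower. Of 29 subunits of oxidative phosphorylation none was called by edgeR, DESeq2 or limma voom, and 0 had an unadjusted p under 0.05 (median −0.27). Of 15 hypoxia genes 1, Egln1, was lower (median −0.02), and of 21 glycolysis genes Slc2a3, Hk3 and Aldoc were higher and Pfkm and Pfkp lower (median 0.17). Without FeAAD5 and FeAAD9 0 hypoxia genes were called, and 2 glycolysis genes were higher and 2 lower. Without FeAAD5 alone 1 glycolysis gene was higher. The phosphofructokinase gene Pfkp was at 156 to 202 CPM and 106 to 158 CPM (−0.45 ± 0.09, adjusted p = 0.000632).

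Red cell and other tissue markers were measured beside these results. Of 6 erythroid genes 5 were DEGs (median 3.06), and without FeAAD2 0 were called (median 0.77). The α-globin gene Hba-a1, whose reads were shared with its paralog, was at 48.3 to 263 CPM in FeNonAD and 72.5 to 9183 CPM (median 223) in FeAAD (3.06 ± 0.70, adjusted p = 0.00161), and without FeAAD2 its log2 fold change was 0.79 (adjusted p = 0.22), and with limma voom 0.97 (adjusted p = 0.224). FeAAD2 had the highest FeAAD sum of the T cell list and of no other leukocyte list above. None of the heart muscle, skeletal muscle, brown fat, white fat, nerve or thymus markers was called by edgeR, DESeq2 or limma voom, with 0 or 1 member of each list at an unadjusted p under 0.05 and medians of −0.88 to −0.10, and without FeNonAD8 1 white fat marker was lower.

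The same step was measured in males, from 4 MaNonAD and 7 MaAAD libraries. The difference between the sexes in the step passed the adjusted p in edgeR for 0 of 14431 genes (0%), with a lowest adjusted p of 0.10. In edgeR 150 genes had an unadjusted p under 0.05, fewer than the 1 in 20 that chance alone gives. DESeq2 and limma voom each called 1 gene, with 216 and 2534 genes at an unadjusted p under 0.05. The male step itself gave 51 higher and 0 lower DEGs in edgeR, 507 and 11 with DESeq2, and 685 and 298 with limma voom. With 4 MaNonAD mice, the lack of calls for the difference does not show that the steps are alike. Of the 980 higher female DEGs 958 had a positive male value, and of the 36 lower ones 32 a negative one. Over all tested genes the median male log2 fold change was 0.00348. Cdk1 had a male log2 fold change of 1.68 (adjusted p = 0.10) beside 2.96 in females, and Myh11 one of −0.60 (adjusted p = 0.18) beside −0.85. The gene with the smallest p of the difference was Ms4a1, which was at −2.04 in males and 1.48 in females (p = 7.07e-06 before adjustment, adjusted p = 0.10). Hba-a1 was at −1.21 in males (p of the difference 0.000186 before adjustment), and its female value rested on 1 library. Fos was at −0.42 in males (p of the difference 0.00285 before adjustment) and Pla2g2d at −0.45 (0.0133 before adjustment).

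**Figure D5:**
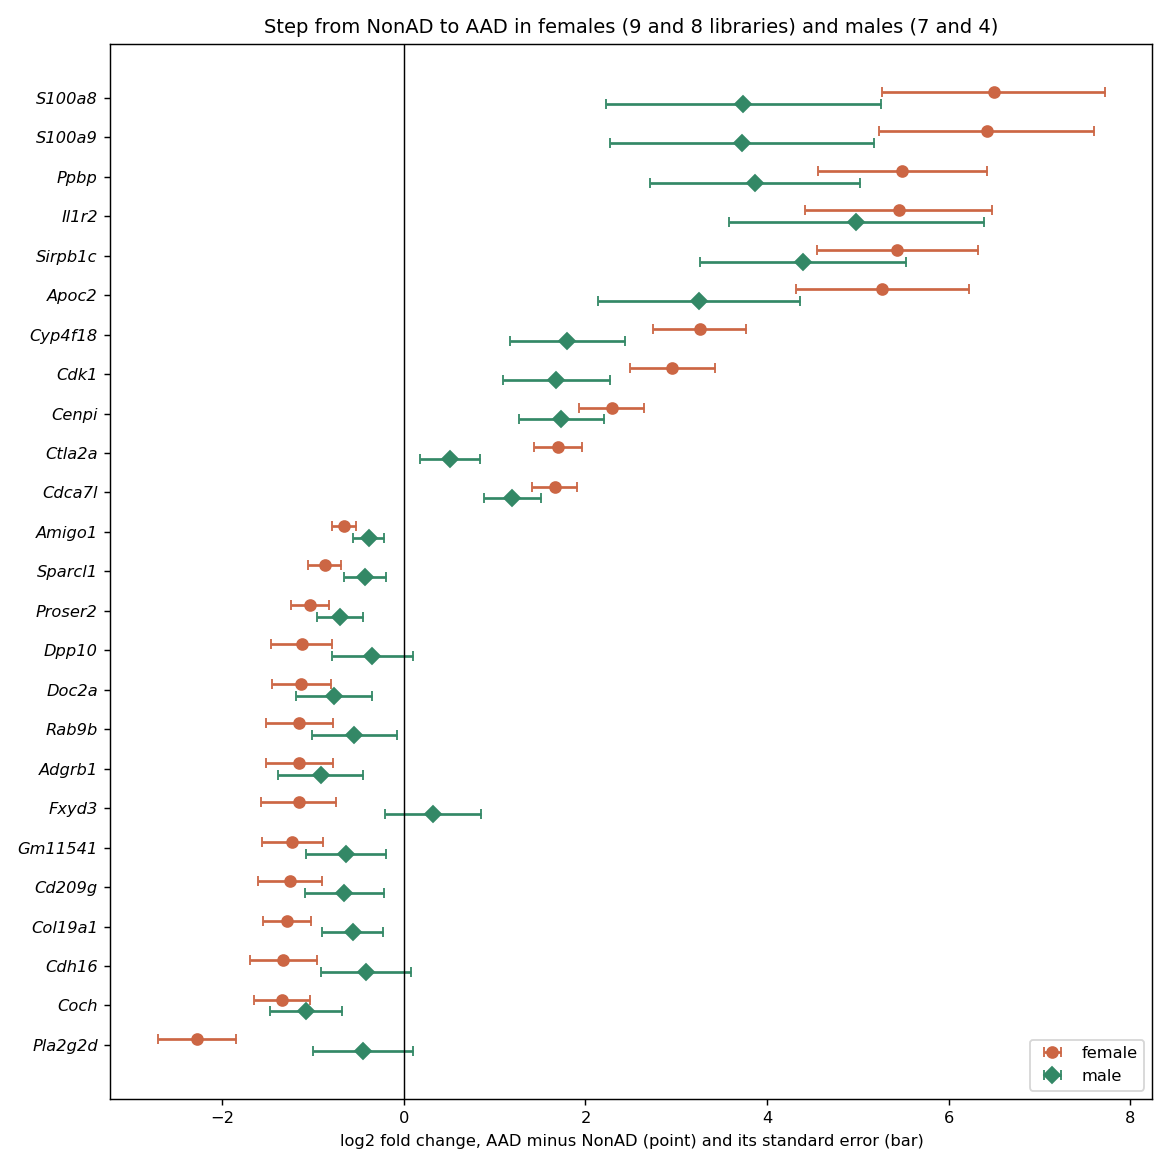
Log2 fold change from NonAD to AAD (points) with its standard error (bars) in females (circles, 9 FeAAD and 8 FeNonAD libraries) and males (diamonds, 7 MaAAD and 4 MaNonAD libraries), for the genes named by size or by smallest p that had more than a few counts in both NonAD groups. Female and male points lie on the same side of 0 for all genes shown but Fxyd3, and the male bars are the wider ones.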

How the data were processed

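Per the submitters' processing notes the reads were handled with Bowtie2 and RSEM 1.3.1, and the build named is GRCm39. The authors deposited expected counts per gene, which RSEM splits among genes that share reads, and 4.99% of the values were not whole. Strand-specific mRNA libraries were made from the thoracic aorta after saline perfusion. The methods name lesioned segments as the source of the RNA, and which segment was taken from mice without a lesion is not given in the sources used here. The test had been planned for raw counts, so the expected counts were first rounded to whole numbers. Of 18782 genes 14431 passed the low-count filter. All 48 libraries were fitted with a mean for each of 6 groups in edgeR 4.0.16 (R 4.3.3) with TMM factors (0.9725 to 1.066 in the 17 libraries) and the robust quasi-likelihood test, checked on simulated data. P-values were Benjamini-Hochberg adjusted over all tested genes, and standard errors are approximate, derived from the F statistic. The p-values measure the spread between mice, 1 library each. DESeq2 1.42.0 and limma 3.58.1 were alternatives, with other scalings, filters and libraries left out.

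Genes were named by rule: the 12 largest rises and 12 largest falls among DEGs averaging at least 10 counts (10 rises and 11 falls are given), the 5 rises and 5 falls with the smallest p, and members of gene lists as examples, some of which are not reported here. Genes named because their groups did not overlap were chosen after their values were seen where no list holds them. The comparison, the members and the lists were chosen with earlier results of these data known. The same-numbered libraries of both groups are different mice, so the numbers were not used as pairs. Promoter windows came from RefSeq on GRCm38.p6, matched by symbol, and 5 motifs were searched over 4 lists. No coordinate was taken across builds.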

Additional observations from a re-analysis of the deposited data

Results flagged for a closer look

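Of 58 tests for a library far from the rest of its group, on log2(CPM + 1) levels of the genes named by rule, 6 stood out, and chance gives about 1 in 20. That rate is only a rough guide, since the genes were chosen by their values in these libraries and the same libraries recur across them. The value given is the gap of the highest or lowest library to the nearest other one, divided by the range of the group. FeNonAD8 stood above the other FeNonAD libraries for Cxcl3 (0.828), Il1r2 (0.816) and Cstdc4 (1, since it was the only FeNonAD library with a count). FeAAD5 stood above the other FeAAD libraries for Gm5150 (0.589), and below them for Proser2 (0.547) and Amigo1 (0.634).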

How the results depend on the processing

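The count of DEGs higher in FeAAD was 980. It was 1057 with DESeq2, 842 with limma voom and 714 in a fit of the 17 libraries alone, and moved by more than 1.5 times to 600 without FeAAD5 and FeAAD9 and to 1904 with no minimum fold. The count of lower DEGs, 36, was 16 in the fit of the 17 libraries and 22 in that of the 27 female libraries, 10 without FeAAD5 and FeAAD9, 14 without FeNonAD8 as well, and 721 with no minimum fold. Leaving out each library in turn gave 696 (without FeAAD5) to 1135 (without FeNonAD8) higher and 17 (without FeAAD5) to 80 (without FeAAD3) lower DEGs. Lower DEGs also moved past 1.5 times without FeAAD4 (60), FeAAD9 (22) or FeNonAD1 (23). The genes without overlap between FeAAD and FeNonAD, higher in FeAAD, were 24 to 254 (254 without FeNonAD8, 95 without FeAAD3, 56 without FeAAD8, 44 without FeAAD4) and 287 without FeAAD5, FeAAD9 and FeNonAD8. The genes without overlap between FeAAD and FeNonAD, lower in FeAAD, were 9 to 64 (64 without FeAAD3, 36 without FeNonAD3, 28 without FeNonAD8, 19 without FeAAD8, 14 without FeAAD4 or FeNonAD5) and 31 without FeAAD5, FeAAD9 and FeNonAD8. Leaving out a library can only keep or raise the counts of genes without overlap. The difference between the sexes gave 1 gene with DESeq2, 1 with limma voom and 0 to 1 as libraries were left out (1 without FeNonAD5). The settings without FeAAD5 and FeAAD9, and without FeNonAD8 as well, were chosen after seeing the data.

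Of 171 genes named 160 were called, and 125 kept the call whichever single library was left out. The call ended for 57 without FeAAD5 and FeAAD9 (2 could not be tested), for 39 without FeNonAD8 as well (2 not tested), for 50 in the fit of the 17 libraries (10 not tested), 13 in that of the 27 female libraries (11 not tested), 18 with limma voom, 17 with the replicate block, Cstdc4, Cd79a, Mmp9 and Hba-a1 among them, 11 without a filter and 3 with DESeq2. Those named as list members without values that lost it were Aldoc, Apln, Aplnr, Cd79b, Clec3b, Col22a1, Emilin2, F13a1, Fbn1, Kcnn4, Lum, Mertk, Mgp, Slc2a3, Srf, Timd4 and Tnxb, each of them without FeAAD5 except Fbn1. Mmp9 turned negative with limma voom (−0.55), without FeAAD5 and FeAAD9 (−0.64) and without FeNonAD8 as well (−0.74), and the cause was not tested. With the number as a replicate block the DEGs were 864 higher and 35 lower. Same-numbered FeAAD and FeNonAD libraries did not deviate together (r of −0.532 to 0.3), and 1 of 8 correlated best with its own number, so the numbers do not pair the mice. Depth limits the genes with few or no counts in FeNonAD, whose fitted folds are imprecise.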

Other observations

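Several gene lists were read at adjusted p under 0.05 with no minimum fold, a rule that 13.2% of all tested genes passed as higher and 5.00% as lower. The lysosomal cathepsins, the proteases of phagocytic and other cells, had 8 of 14 tested members higher and none lower, 3 without FeAAD5 and 4 without FeAAD5 and FeAAD9. Ctsc, which activates the granule proteases of leukocytes, was at 53.0 to 114 CPM in FeNonAD and 89.2 to 679 CPM in FeAAD, a log2 fold change of 1.41 ± 0.28 (adjusted p = 0.00026). Lgmn, an asparaginyl endopeptidase of lysosomes, changed by 0.87 ± 0.20 (adjusted p = 0.00186). Genes of arginine and nitric oxide metabolism had 8 of 17 higher, and 4 without FeAAD5 and FeAAD9. Ddah1, which degrades an inhibitor of nitric oxide synthesis, was at 0.682 to 29.9 CPM in FeNonAD and 2.6 to 47.0 CPM in FeAAD (1.94 ± 0.55, adjusted p = 0.0111). FeNonAD8 held the 29.9 CPM and the next FeNonAD library 2.23 CPM, and without FeNonAD8 the log2 fold change of Ddah1 was 3.64.

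The TGF-beta, BMP and activin list had 5 higher and 2 lower of 32 tested, 3 higher and 0 lower without FeAAD5, and 2 higher and 0 lower without FeAAD5 and FeAAD9. Gdf6, a ligand of the BMP family, rose (1.25 ± 0.33, adjusted p = 0.00562), and the receptors Tgfbr3 (−0.37 ± 0.13, adjusted p = 0.0386) and Bmpr1b (−0.67 ± 0.22, adjusted p = 0.0277) fell, a call that Tgfbr3 lost when any of 8 single libraries was left out and Bmpr1b when any of 5 was, FeAAD5 among them for both.

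The unfolded protein response list had 6 of 20 higher, none of them by 2-fold. Without FeAAD5 or FeAAD9 alone 2 were higher and without both 0, and without FeNonAD8 9 were higher, 2 of them by 2-fold. Pdia6, a protein disulfide isomerase of the endoplasmic reticulum, changed by 0.81 ± 0.20 (adjusted p = 0.00313), and Pdia4 by 0.70 ± 0.19 (adjusted p = 0.00865). Of 12 aryl hydrocarbon receptor and tryptophan enzyme genes 5 were higher, 3 without FeAAD5 and 2 without FeAAD5 and FeAAD9. Ahr, the receptor itself, was at 2.55 to 15.9 CPM and 6.19 to 34.1 CPM (1.42 ± 0.32, adjusted p = 0.00145). Cyp1b1, a target of that receptor, changed by 0.85 ± 0.24 (adjusted p = 0.011). Il4i1, an amino acid oxidase, changed by 1.68 ± 0.56 (adjusted p = 0.0299), and 22.9% of its values were not whole, as happens where reads are shared with other genes. Of 7 mast cell markers 1 was called, Hdc, which makes histamine (1.21 ± 0.42, adjusted p = 0.0406), and of 6 lymphatic endothelial markers 1, Pdpn (1.16 ± 0.30, adjusted p = 0.00447), which was at 0.65 (adjusted p = 0.146) without FeAAD5 and FeAAD9. The calls of Hdc and Il4i1 ended without FeAAD5 (adjusted p of 0.282 and 0.321), and also without any of 6 other single libraries for Hdc and of 3 others for Il4i1. These calls are from edgeR, as in the rest of the text.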
